A study of Homo sapiens with 6 samples.

Results

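The mRNA levels of 10 kinases that drive or monitor mitosis (CDK1, AURKA, AURKB, PLK1, PLK4, BUB1, BUB1B, TTK, NEK2 and PBK) were examined in MCF10A cells after PAX9 depletion. MCF10A is an established, non-tumorigenic human breast epithelial cell line. Cells were transfected for 72 hours with 30 nM of siRNAs against PAX9 (siPAX9) or of a non-targeting siRNA (siNT), and poly(A)+ RNA of 3 samples per group was sequenced. The table lists 41656 rows, each a stretch of the genome (UCSC hg19) with 1 FPKM per group, that is, a fragment count divided by transcript length and by the size of the library, which the authors pooled over the samples of a group. The kinases were found by their exact symbols among 26822 named genes, each on 1 row. All 10 belonged to the 13145 genes counted as measured, with FPKM above 0 in both groups and a mean FPKM of at least 1. Since the FPKM are 1 pooled value per group, no spread between samples, interval or test could be computed from them, and no 2 kinases can be said to differ from each other beyond their error. The authors' own test columns were not used. Differences are described by size, and a gene is called lower or higher where its FPKM differed at least 2-fold.

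Mitotic kinases act in sequence. CDK1, bound to cyclins A and B, starts mitosis, PLK1 and the Aurora kinases build the spindle and prepare the chromosomes for division, and BUB1, BUB1B and TTK form the spindle assembly checkpoint, which holds back anaphase until every chromosome is attached. PLK4 and NEK2 act on centrioles and centrosomes, and PBK is a kinase that is active in dividing cells. The mRNAs of most of these kinases accumulate in G2 and M phase and are low in cells that have left the cycle, under the control of the MuvB complex with MYBL2 and FOXM1.

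The PAX9 row was at 2.80 FPKM in siNT against 0.325 FPKM after depletion. All 12 epithelial markers examined were measured, with a summed level of 4122 FPKM in siNT and 4687 FPKM in siPAX9. Of these 12, 1 (EPCAM) was at least 2-fold lower and 1 (CDH1) at least 2-fold higher, near the 6.57% and 6.37% of all measured genes. Of 8 fibroblast markers, 6 were under 1 FPKM in both groups, among them COL3A1, listed at 0 in both, and COL1A2, listed at 0 in siNT and at 0.00337 in siPAX9. DCN, at 5.85 and 37.9 FPKM, and COL1A1, at 0.454 and 4.13 FPKM, were the others, and the summed level of the 8 was 6.46 FPKM in siNT and 42.2 FPKM in siPAX9. Of 10 blood and endothelial markers, 7 were under 1 FPKM in both groups, among them PTPRC. The others were CD68, at 3.38 and 3.77 FPKM, and the endothelial markers PECAM1, at 2.58 and 0.495 FPKM, and KDR, at 0.798 and 1.94 FPKM, and the summed level of the 10 was 6.81 FPKM in siNT and 6.36 FPKM in siPAX9. The part of the differing DCN, COL1A1, PECAM1 and KDR levels in the results was not tested. The median log2 change (siPAX9 over siNT) of all measured genes was -0.07.

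Of the 10 kinases, 9 were at least 2-fold lower in siPAX9 and 0 were higher. Among all measured genes, 6.57% were at least 2-fold lower and 6.37% at least 2-fold higher. The 9 lower kinases were between 2.70-fold and 4.46-fold lower, and BUB1B, whose row holds other genes as well, was at the same level in both groups. The median log2 change of the 10 was -1.92. TTK, NEK2, AURKB and BUB1 were at least 4-fold lower, as were 1.18% of all measured genes. This count of 4 depended on the scaling: it was 2 (TTK and NEK2) with log2 changes centred on all measured genes (1.05% of which were then 4-fold lower) or on the reference genes (0.981%), and 0 with 1 added to each FPKM, where 0.494% of all measured genes were 4-fold lower. Within the range of mean FPKM that the 10 kinases span, from 3.92 to 16.8, 5.41% of 5689 genes were at least 2-fold lower.

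**Figure D1:**
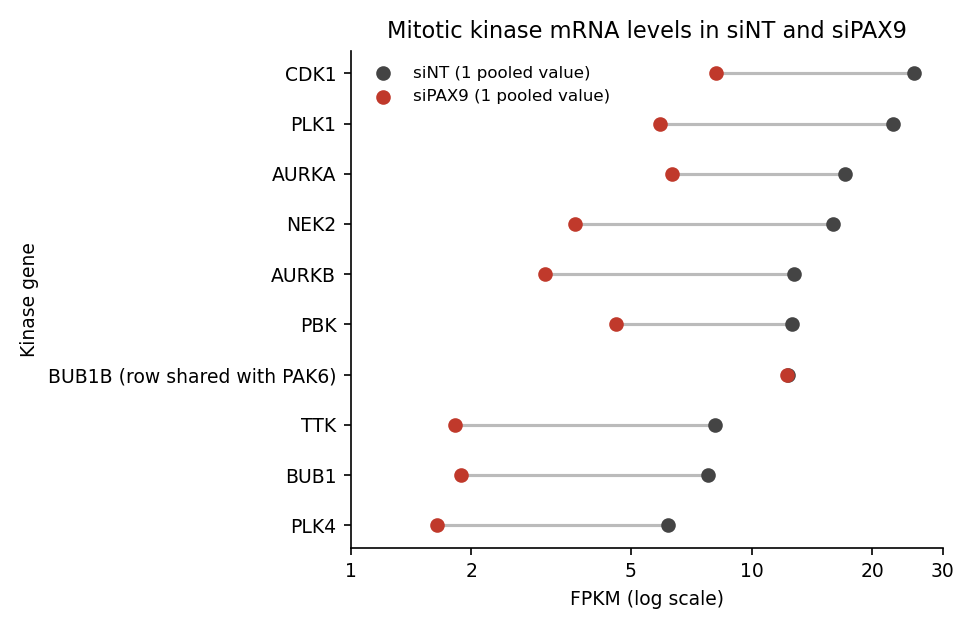
FPKM of the 10 kinases in siNT (grey) and siPAX9 (red) on a log axis, 1 pooled value per group with no error, ordered by their level in siNT. The siPAX9 points lie between 1.64 and 8.17 for 9 kinases, each left of its siNT point, while the BUB1B points fall together at 12.4 and 12.2.

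CDK1, the cyclin-dependent kinase that triggers entry into mitosis, had the highest level of the 10 in siNT. Its row on chromosome 10 (62538089 to 62556552) had 25.4 FPKM in siNT and 8.17 FPKM in siPAX9, 3.11-fold lower, a log2 change of -1.64. PLK1, a kinase of mitotic entry, centrosome maturation and cytokinesis, had 22.5 FPKM in siNT and 5.92 FPKM in siPAX9, 3.80-fold lower. Its row on chromosome 16 (23690093 to 23724821) spans the neighbouring gene ERN2 on the other strand, and the annotated PLK1 and ERN2 genes share 58 bases. ERN2 has a row of its own, at 0.0348 and 0.00538 FPKM. AURKA, the Aurora kinase of centrosomes and spindle poles, had 17.1 FPKM in siNT and 6.33 FPKM in siPAX9 on chromosome 20 (54944445 to 54967393). At 2.70-fold, a log2 change of -1.43, it was the smallest difference among the 9 lower kinases on this scale, while with 1 added to each FPKM PBK (-1.28) was just below AURKA (-1.30) in size.

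AURKB, the Aurora kinase of the chromosomal passenger complex, which corrects faulty attachments of chromosomes, had 12.7 FPKM in siNT and 3.05 FPKM in siPAX9 on chromosome 17 (8108049 to 8113944). It was 4.17-fold lower, with a log2 change of -2.06. The ratio of AURKA to AURKB was 1.34 in siNT and 2.07 in siPAX9.

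TTK, also known as MPS1, phosphorylates kinetochores that lack attachment and so starts the checkpoint signal. Its row on chromosome 6 (80714322 to 80752342) had 8.11 FPKM in siNT and 1.82 FPKM in siPAX9, 4.46-fold lower (log2 change -2.16), the largest difference of the 10 on this scale. With 1 added to each FPKM the log2 change of TTK was -1.69, and those of NEK2 (-1.88), PLK1 and AURKB (-1.76 each) were larger in size. BUB1, which binds the kinetochore scaffold and helps recruit the other checkpoint proteins, had 7.81 FPKM in siNT and 1.89 FPKM in siPAX9 on chromosome 2 (111395275 to 111435684), 4.13-fold lower. Ranked from the lowest log2 change among the 13145 measured genes, TTK stood at 118 and NEK2 at 119. AURKB and BUB1 stood at 142 and 147, and AURKA, the last of the 9 lower kinases, at 391.

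BUB1B encodes BUBR1, a subunit of the mitotic checkpoint complex that inhibits the anaphase-promoting complex. Its row on chromosome 15 (40453210 to 40569688) had 12.4 FPKM in siNT and 12.2 FPKM in siPAX9, a log2 change of -0.01. This row carries 3 symbols, BUB1B, BUB1B-PAK6 and PAK6. By GENCODE (GRCh37, with coordinates equal to those of hg19), BUB1B runs from 40453224 to 40513324 and PAK6, a p21-activated kinase, from 40509629 to 40569688 on the same strand, and they share 3696 bases. The row therefore covers both genes and their read-through transcript, and the level of BUB1B alone cannot be told apart from that of PAK6. It was the only one of the 10 kinases on a row with several symbols. Its FPKM ranked 7 of the 10 in siNT and 1 of the 10 in siPAX9.

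NEK2, a kinase that separates centrosomes at the onset of mitosis, had 15.97 FPKM in siNT and 3.62 FPKM in siPAX9 on chromosome 1 (211831599 to 211848972), 4.41-fold lower. PLK4, the master kinase of centriole duplication, was the least abundant of the 10 in both groups, with 6.19 FPKM in siNT and 1.64 FPKM in siPAX9 on chromosome 4 (128802016 to 128820377), 3.78-fold lower. PBK, also known as TOPK, had 12.6 FPKM in siNT and 4.60 FPKM in siPAX9 on chromosome 8 (27667122 to 27695612), 2.74-fold lower, a log2 change of -1.46.

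**Figure D2:**
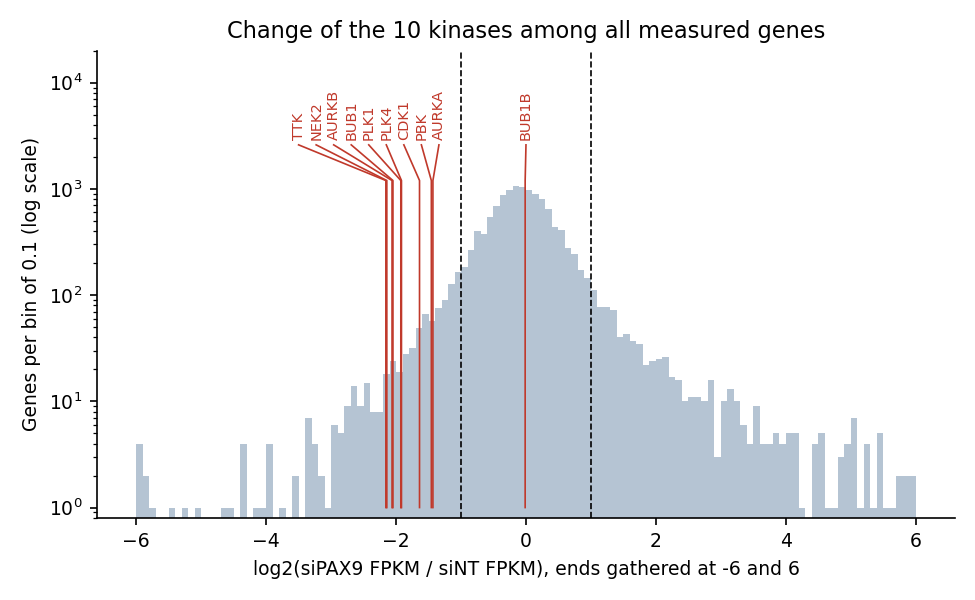
Histogram of the log2 change (siPAX9 over siNT) of the 13145 measured genes in bins of 0.1 with a log count axis, with red lines at the 10 kinases and dashed lines at a 2-fold difference. The labelled lines of 9 kinases lie left of the lower dashed line, between -2.16 and -1.43, and BUB1B lies near 0.

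Summed over the 9 kinases with a row of their own, the level was 128.5 FPKM in siNT and 37.0 FPKM in siPAX9, or 28.8% of the siNT level. The log2 changes of these 9 spanned 0.72. The range of levels among them was of similar width in both groups, with the highest 4.11 times the lowest in siNT and 4.98 times in siPAX9. Within this sum, the share of CDK1 was 19.8% in siNT and 22.1% in siPAX9, and that of AURKA was 13.3% and 17.1%. The share of NEK2 was 12.4% and 9.77%, and that of AURKB was 9.92% and 8.24%. Bulk RNA does not separate fewer cells in G2 and M phase from less of each mRNA per cell, so these cannot be told apart.

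The promoters of the kinases are shown because 9 of the genes moved in the same direction and known promoter elements of G2/M genes can be read from the sequence. RefSeq promoter windows (GRCh38.p14, 250 bases before to 50 bases after a transcription start) matched 7 of the 10 genes with 11 windows. AURKA, TTK and PBK were not matched. The stretches below lie before the start and are written 5′ to 3′ on the strand of the gene. Capitals mark exact matches to the cell cycle genes homology region (CHR, TTTGAA or TTCGAA), the element bound by MuvB, and to the CCAAT box (CCAAT), the element bound by NF-Y, on either strand, so that a CCAAT box on the other strand reads ATTGG. Each stretch covers the 165 bases before the start, except that of the downstream CDK1 start, where 30 bases are shown.
CDK1 upstream start, chr10:60778166-60778330, plus strand: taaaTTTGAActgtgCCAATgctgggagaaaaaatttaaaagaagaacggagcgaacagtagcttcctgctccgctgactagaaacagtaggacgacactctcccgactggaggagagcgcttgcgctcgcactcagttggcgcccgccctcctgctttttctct
CDK1 downstream start, chr10:60778393-60778422, plus strand: ggctctgATTGGctgcTTTGAAagtctacg
PLK1, chr16:23678724-23678888, plus strand: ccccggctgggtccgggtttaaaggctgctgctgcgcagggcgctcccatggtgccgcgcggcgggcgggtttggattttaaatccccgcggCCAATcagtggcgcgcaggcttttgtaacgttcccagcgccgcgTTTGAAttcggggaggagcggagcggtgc
BUB1, chr2:110678064-110678228, minus strand: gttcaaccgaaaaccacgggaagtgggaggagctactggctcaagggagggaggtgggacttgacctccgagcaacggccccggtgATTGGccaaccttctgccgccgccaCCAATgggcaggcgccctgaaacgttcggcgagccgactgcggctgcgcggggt
NEK2, chr1:211675622-211675786, minus strand: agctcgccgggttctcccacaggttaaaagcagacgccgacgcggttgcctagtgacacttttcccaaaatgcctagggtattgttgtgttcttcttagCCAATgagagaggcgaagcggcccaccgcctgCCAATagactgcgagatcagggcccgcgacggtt
AURKB, chr17:8210250-8210414, minus strand: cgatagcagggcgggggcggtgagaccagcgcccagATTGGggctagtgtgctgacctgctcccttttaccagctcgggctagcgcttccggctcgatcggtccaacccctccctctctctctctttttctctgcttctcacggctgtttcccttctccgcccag
BUB1B, chr15:40160904-40161068, plus strand: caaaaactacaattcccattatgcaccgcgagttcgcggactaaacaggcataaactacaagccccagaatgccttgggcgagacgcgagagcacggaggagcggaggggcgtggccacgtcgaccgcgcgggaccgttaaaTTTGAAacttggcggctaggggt

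A CCAAT box was present in at least 1 window of 6 of the 7 genes, all but BUB1B. Over all genes of the RefSeq table, 39.7% of 27305 had 1 in at least 1 window. By window, 8 of the 11 kinase windows held it, against 34.6% of all 35116 windows. NEK2 had CCAAT boxes 66 and 34 bases before its start, and BUB1 had them 79 and 54 bases before. A CHR was found for CDK1, PLK1, PLK4, BUB1 and BUB1B, 5 of 7 genes, against 19.5% of all genes, and in 6 of the 11 windows, against 16.4% of all windows. That of PLK1 began 29 bases and that of BUB1B 23 bases before the start. The downstream CDK1 window held CHR matches 69 and 13 bases before its start and another 10 bases after it, beside CCAAT boxes at 78 and 46 bases before it. The CDK1 windows overlap, as do those of AURKB, so that a match can appear in both. In BUB1 and in PLK4 the match lay after the start, and in the bases before the start the CHR count was 3 of 7 genes (17.2% of all genes). An E2F core, searched on both strands as TTCCCGC and also as its variant TTGGCGC, as the variant TTCGCGC and as the variant TTGCCGC, was found for CDK1 and PLK4, against 15.3% of all genes. CHR, CCAAT and E2F matches in these windows did not share letters, and a match describes the letters in the window, not binding.

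**Figure D3:**
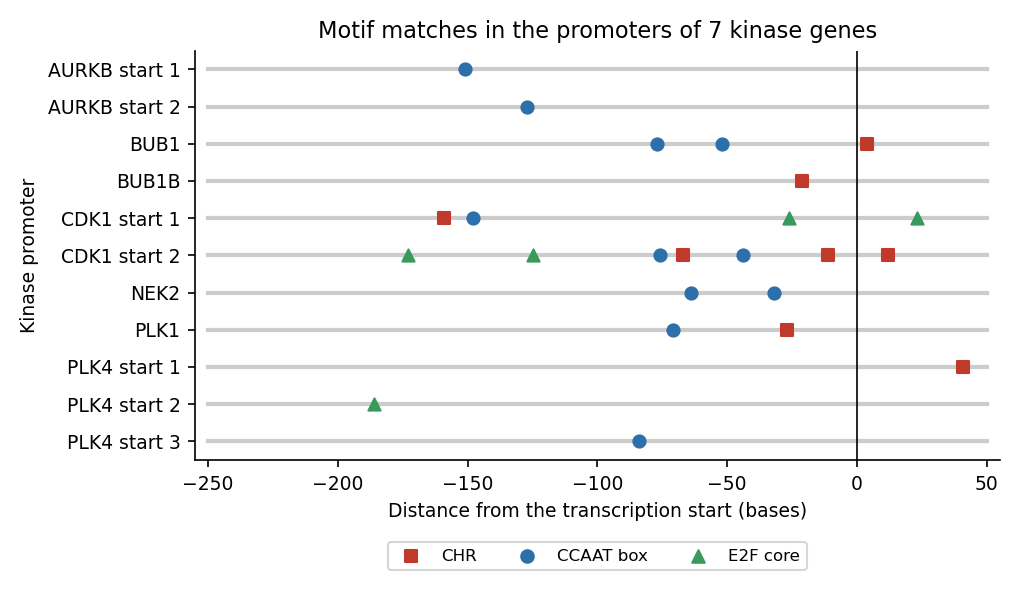
Positions of CHR (red squares), CCAAT box (blue circles) and E2F core (green triangles) matches in the 11 RefSeq windows of 7 kinase genes, by distance in bases from the transcription start (vertical line). CCAAT boxes lie before the start in the windows of 6 genes, and the BUB1B window holds a CHR match and no CCAAT box.

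The nearest measured genes on either side of each kinase were compared with it, 20 neighbours in all at gaps from 33 to 1104460 bases. Their median log2 change was -0.02, and 1 was at least 2-fold lower and 2 at least 2-fold higher, near the 6.57% and 6.37% of all measured genes. The lower neighbour was ESCO2, which acts in sister chromatid cohesion, next to PBK, with 2.64 FPKM in siNT and 1.10 FPKM in siPAX9. The higher neighbours were BMF next to BUB1B (0.404 FPKM in siNT and 7.01 FPKM in siPAX9), which encodes a pro-apoptotic BCL2 family protein, and SLC30A1, a zinc transporter, next to NEK2 (22.2 and 62.7 FPKM). BMF counted as measured through its siPAX9 level alone, and without it SLC30A1 was the 1 higher neighbour. CSTF1, which starts 33 bases beyond the AURKA row, had 16.6 FPKM in siNT and 12.1 FPKM in siPAX9, a log2 change of -0.45 beside -1.43 for AURKA.

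The regulators that bind or modify CDK1 were mostly lower, and 7 of 10 were at least 2-fold lower (median log2 change -1.31), beside 6.57% of all measured genes. With 1 added to each FPKM the count was 6, against 4.58% of all measured genes. CCNB1, the main mitotic cyclin, had 35.1 FPKM in siNT and 10.2 FPKM in siPAX9, and the ratio of CDK1 to CCNB1 was 0.73 in siNT and 0.80 in siPAX9. CDC25C, a phosphatase that activates CDK1, had the lowest log2 change, -2.43, followed by CCNB2 at -2.12. CDC25C was under 1 FPKM in siPAX9, and of the 9 others 6 were at least 2-fold lower. PKMYT1, an inhibitory kinase of CDK1, had a log2 change of -1.12. WEE1, the other inhibitory kinase, had 8.11 FPKM in siNT and 7.30 FPKM in siPAX9, and CDC25B had 95.5 and 94.7 FPKM. The ratio of CDK1 to WEE1 was thus 3.14 in siNT and 1.12 in siPAX9.

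Of 10 partners of the Aurora kinases and PLK1, 8 were at least 2-fold lower (median log2 change -1.50), beside 6.57% of all measured genes. The count was 6 with 1 added to each FPKM, where 4.58% of all measured genes were at least 2-fold lower. TPX2, the activator of AURKA at the spindle, had 21.2 FPKM in siNT and 7.97 FPKM in siPAX9, so that the ratio of AURKA to TPX2 was 0.80 in siNT and 0.79 in siPAX9. BIRC5, which encodes survivin of the chromosomal passenger complex, had 18.0 FPKM in siNT and 4.22 FPKM in siPAX9, and the ratio of AURKB to BIRC5 was 0.71 and 0.72. INCENP, the scaffold of the same complex, had 8.16 FPKM in siNT and 4.85 FPKM in siPAX9, so that the ratio of AURKB to INCENP was 1.56 in siNT and 0.63 in siPAX9. HMMR, a spindle protein that acts with TPX2, had the lowest log2 change of the list, -2.12, and CEP192, a centrosomal scaffold for AURKA and PLK1, the highest, 0.09.

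Of 14 spindle checkpoint partners, 8 were at least 2-fold lower (median log2 change -1.10), beside 6.57% of all measured genes. The count was 5 with 1 added to each FPKM, where 4.58% of all measured genes were at least 2-fold lower. CENPE, the kinesin that activates BUBR1 at kinetochores, had the lowest log2 change, -1.76. MAD2L1 had 30.7 FPKM in siNT and 9.31 FPKM in siPAX9, and CDC20, the target of the checkpoint, had 23.5 and 7.88 FPKM. BUB3, the binding partner of BUB1 and BUBR1, had 60.8 FPKM in siNT and 43.8 FPKM in siPAX9, a log2 change of -0.47. The ratio of BUB1 to BUB3 was 0.128 in siNT and 0.0431 in siPAX9. MAD1L1, the binding partner of MAD2L1, had the highest log2 change, 0.42.

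**Figure D4:**
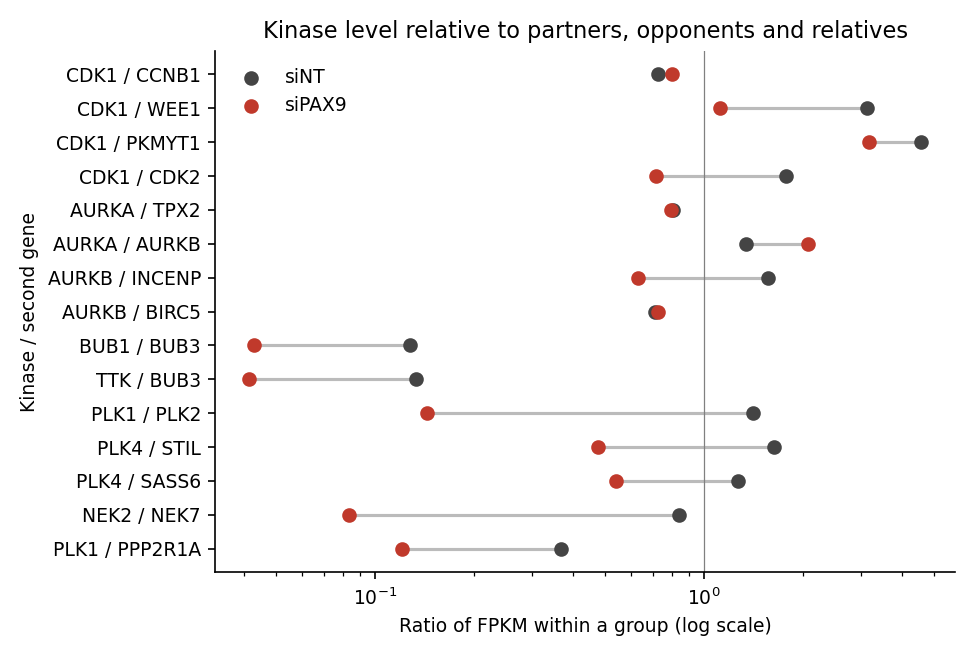
Ratio of the FPKM of a kinase to that of a partner, opponent or relative within siNT (grey) and siPAX9 (red), on a log axis, from 1 pooled value per gene and group. The ratios of CDK1 to CCNB1, AURKA to TPX2 and AURKB to BIRC5 nearly coincide between groups, and that of NEK2 to NEK7 was 0.840 in siNT and 0.0834 in siPAX9.

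None of the 11 centriole and centrosome partners of PLK4 and NEK2 differed 2-fold, beside 6.57% of all measured genes lower and 6.37% higher, so that a count of 0 in a list of this size lies near the background. Their median log2 change was -0.24. STIL and SASS6, which build the new centriole with PLK4, had log2 changes of -0.14 and -0.68. The ratio of PLK4 to STIL was 1.63 in siNT and 0.48 in siPAX9. CEP57 was the lowest at -0.93 and CROCC, which encodes the rootletin linker that NEK2 phosphorylates, the highest at 0.36.

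Other members of the same kinase families were set beside the 10, among them NEK6, NEK7 and NEK9, which also act in mitosis. Of 33 relatives, 29 were measured, 1 was at least 2-fold lower and 3 were at least 2-fold higher (median log2 change -0.13), near the 6.57% and 6.37% of all measured genes. Of the 29, 5 were on rows with several symbols, among them CDK11A and CDK11B, which share 1 row and its value. CDK6, a G1 kinase, was the lower one, with 14.0 FPKM in siNT and 6.33 FPKM in siPAX9, and CDK4, its close relative, had a log2 change of -0.98. CDK2, the kinase of S phase entry, had 14.3 FPKM in siNT and 11.4 FPKM in siPAX9. In siNT, CDK1 was 1.78 times as abundant as CDK2, and in siPAX9 the ratio was 0.72. PLK2, a polo-like kinase induced by stress, had 15.9 FPKM in siNT and 41.0 FPKM in siPAX9, so that the ratio of PLK1 to PLK2 was 1.41 in siNT and 0.144 in siPAX9. PLK3 had a log2 change of 0.25, on a row shared with BTBD19. NEK7 had 19.0 FPKM in siNT and 43.4 FPKM in siPAX9, and NEK6, its closest relative, had 10.9 and 7.28 FPKM. CDK9 had the highest log2 change, 1.74, on a row that it shares with MIR2861 and MIR3960. AURKC, the Aurora kinase of germ cells, was under 1 FPKM in both groups, at 0.437 and 0.481.

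Of 12 other kinases used in mitosis, 2 were at least 2-fold lower, CIT and MELK, beside 6.57% of all measured genes. CIT, the citron kinase of cytokinesis, had 3.64 FPKM in siNT and 0.827 FPKM in siPAX9, on a row shared with MIR1178, and so counted as measured through its siNT level, and without it 1 of 11 was lower. MELK had 10.5 FPKM in siNT and 4.14 FPKM in siPAX9. LATS2, of the Hippo pathway, was the highest at a log2 change of 0.72. Of 10 DNA damage and replication checkpoint kinases, CHEK1 and CDC7 were at least 2-fold lower, with log2 changes of -1.38 and -1.30, beside 6.57% of all measured genes, and the median of the list was -0.13. TAOK3 was the highest at 0.61.

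A list of phosphatase subunits that oppose mitotic kinases also held ENSA and ARPP19, which encode inhibitors of PP2A-B55 and so act on the side of the kinases. None of its 17 measured genes differed 2-fold, which lies near the background of 6.57% lower and 6.37% higher, and the median log2 change was 0.01. PPP1CC was the lowest at -0.74 and PPP2R1B the highest at 0.54. The ratio of PLK1 to PPP2R1A, the PP2A scaffold, was 0.367 in siNT and 0.121 in siPAX9.

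Among the regulators of cell cycle transcription, 5 of the 24 measured genes were at least 2-fold lower and 1 was at least 2-fold higher (median log2 change -0.38). Of all measured genes, 6.57% were lower and 6.37% higher, so that the higher count lay near the background. With 1 added to each FPKM the lower count was 2, against 4.58% of all measured genes. FOXM1 had 15.5 FPKM in siNT and 4.88 FPKM in siPAX9, and MYBL2 had 10.3 and 3.71 FPKM, both activators of G2/M genes. MYBL1 had the lowest log2 change, -1.70, but at 1.68 and 0.519 FPKM it counted as measured through its siNT level alone, and without it 4 of 23 genes were at least 2-fold lower. The higher gene was CDKN1A, which encodes the CDK inhibitor p21, with 69.0 FPKM in siNT and 373.2 FPKM in siPAX9, a log2 change of 2.44. Of 18 widely used reference genes, HPRT1 was at least 2-fold lower (log2 change -1.65), near the 6.57% of all measured genes, and the median was -0.10.

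**Figure D5:**
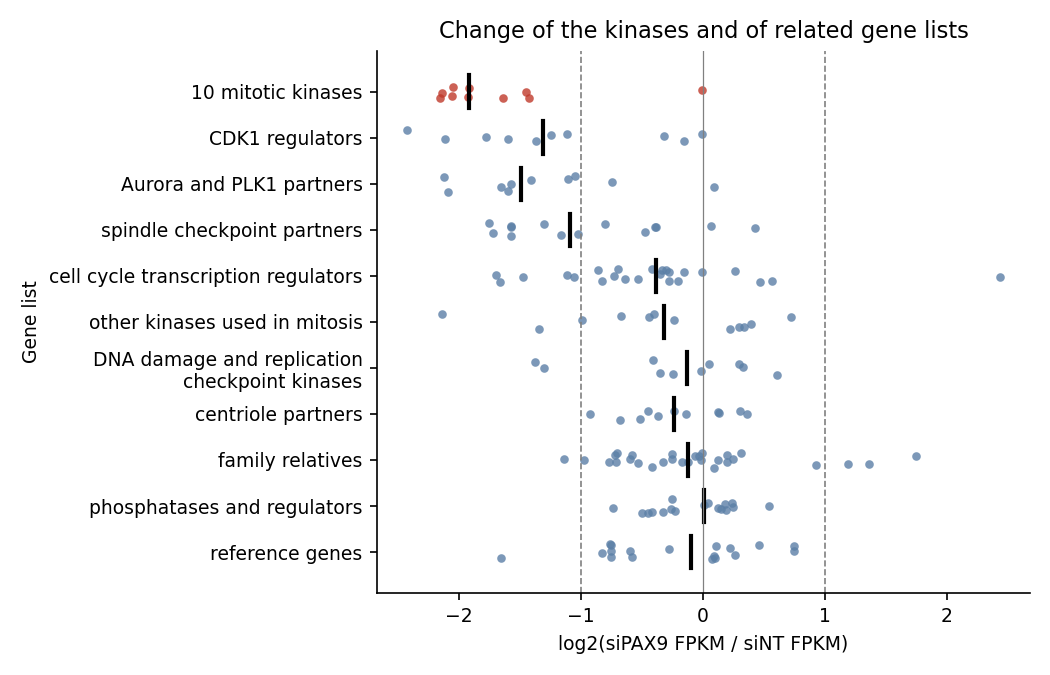
Log2 change (siPAX9 over siNT) of each measured gene of the 10 kinases (red) and of 10 related lists (blue), with the median of each list as a black bar and dashed lines at a 2-fold difference. The kinases have the lowest median, -1.92, and the medians of the centriole partners, family relatives, phosphatases with their regulators, and reference genes lie between -0.24 and 0.01.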

How the data were processed

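Poly(A)+ libraries of 3 siNT and 3 siPAX9 samples were sequenced as single-end reads. Per the study's methods and labels, the authors used Partek Flow, with Bowtie2 alignment against hg19 (UCSC) followed by Cufflinks. The deposited FPKM values are 1 per row and group, pooled over the samples by the authors, and the scaling between libraries is not given in the sources used here. The table holds no read totals. The study's methods give them as a range over the 6 samples, not tied to a sample, so the counts behind an FPKM and its precision could not be worked out. Some rows merge overlapping genes. The authors' columns of fold change, test statistic, p-value, q-value and status were not used.

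From the FPKM, log2(siPAX9/siNT) was computed without a pseudocount. A symbol with several rows keeps the one with the highest mean, and several symbols on a row share its value. The kinases and lists were chosen with earlier results of these data known. Each kinase is named; from each list, the 2 lowest and 2 highest log2 changes and a fixed set of direct partners could be named. The neighbours, cell type markers, ERN2, AURKC and PPP2R1A were named after their values were seen. Locus starts were written 1-based. Protein sequences were not used here. The calling of lower and higher genes was tested on fixed changes planted without noise in the siNT values. The motif search was tested on motifs planted in random sequences. The other steps were not tested in this way. Alternatives were other pseudocounts, centring, filters, thresholds, summed rows and a shorter promoter window. Python 3.11.15, numpy 2.4.6, pandas 2.3.3 and matplotlib 3.10.9 were used.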

Additional observations from a re-analysis of the deposited data

How the results depend on the processing

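The table holds 1 pooled value per gene and group, so no kinase could be examined without a replicate, and the number of reads behind each FPKM could not be worked out. No paired analysis was possible because the replicate numbers of the labels have no values of their own in the table. Under 5 other settings (1 or 0.1 added to the FPKM, log2 changes centred on all measured genes or on the reference genes, and all rows of a symbol summed), the log2 changes of the 9 lower kinases stayed between -2.16 and -1.28, all past 2-fold, and that of the BUB1B row stayed between -0.01 and 0.09. Summing could not change these values, because each kinase has 1 row. Centring took the same value, -0.07 or -0.10, from every log2 change, a shift too small to bring any of the 9 within 2-fold. At a 4-fold threshold, 4 kinases were lower. Under settings chosen after seeing the data, this count was 2 with either centring, without AURKB and BUB1, 3 with 0.1 added and 0 with 1 added, while 65 of all measured genes were 4-fold lower with 1 added against 155 without. Leaving out the BUB1B row, also chosen after seeing the data, gave a median of -1.93 over 9 kinases.

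Among all measured genes, the lower and higher counts of 863 and 837 became 1504 and 2537 of 18462 without a minimum mean FPKM, 531 and 385 of 9754 with a minimum of 5, and 308 and 263 in the kinases' range of mean FPKM. They were 2169 and 1745 at a 1.5-fold threshold and 155 and 296 at a 4-fold threshold. With 1 added to each FPKM, the spindle checkpoint partners had a median of -0.92 with 5 lower genes, and 2 cell cycle transcription regulators were lower. Without a minimum, 5 family relatives and 2 cell cycle transcription regulators were higher. With the bases before the start alone, 3 kinases had a CHR match. Of the values recomputed for these comparisons, 116 kept their side of the threshold or stayed within 1.5 times the main count, 20 counts moved further and 1 median no longer passed the threshold. Those of the kinases with summed rows could not differ from the main values.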
